A study of Mus musculus with 6 samples.

Results

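The genes described here are 10 transcripts that earlier looks at these libraries had singled out in cone photoreceptors: Vax2, Thrb, Rxrg, Tubb2b, Meg3, Sct, Nbl1, Kcnj14, Gm17315 and Gm27032, of 31053 genes in the count matrices. They were chosen by how they differed in cones between mice with oxygen-induced retinopathy (OIR) and controls (Ctrl), so their OIR and Ctrl values are given as a description without a test. Single-cell RNA was measured with a 3' droplet assay in mouse retina at postnatal day 17 (P17). The 3 OIR samples came from pups that breathed 75% oxygen between P7 and P12 and room air for the next 5 days, and the 3 Ctrl samples from pups kept in room air throughout. Each sample pooled the retinas of 2 mice, and the labels give neither strain nor sex. The labels name endothelial cells as the tissue, but of 38569 cells that passed the filters only 196 were endothelial-like by markers and 25488 were rod-like, and 1796 were cone-like (356, 187 and 187 cells in OIR replicates 1, 2 and 3; 803, 176 and 87 in Ctrl replicates 1, 2 and 3).

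Cones are the photoreceptors of daylight vision. A mouse cone carries the medium-wave opsin Opn1mw, the short-wave opsin Opn1sw or both, with the first prevailing in the dorsal and the second in the ventral retina. Thyroid hormone acting through its receptor Thrb is needed for Opn1mw and, together with the retinoid X receptor Rxrg, restrains Opn1sw in developing cones, and the homeobox factor Vax2 marks the ventral retina. Both opsins reach their adult pattern only after the second postnatal week, so the oxygen exposure falls in the period in which cones mature.

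Of the other members, Tubb2b is a beta-tubulin of young neurons, Meg3 a long non-coding RNA made from the maternal copy of the imprinted Dlk1-Dio3 locus, Sct the hormone secretin, Nbl1 (DAN) a secreted binder of bone morphogenetic proteins, and Kcnj14 an inward-rectifier potassium channel (Kir2.4). Gm17315 and Gm27032 are non-coding transcripts without an assigned function. On build GRCm38 with GENCODE M21, Vax2 lies on chromosome 6 (83711264 to 83738313), Thrb on 14 (17660261 to 18038090), Rxrg on 1 (167598384 to 167639623), Tubb2b on 13 (34126748 to 34130466), Meg3 on 12 (109541001 to 109571726), Sct on 7 (141278330 to 141279133), Nbl1 on 4 (139082284 to 139092993), Kcnj14 on 7 (45816460 to 45824782), Gm17315 on 17 (79354699 to 79358022) and Gm27032 on 2 (180894105 to 180895220). Gm27032 starts within the last 3 bases of the hairpin of Mir124a-3 on the same strand. Vax2 overlaps its antisense gene Vax2os by 938 bases and Gm17315 overlaps the start of Cdc42ep3 on the other strand by 393 bases.

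RefSeq promoters (GRCm38.p6, from 250 bases before to 50 after a transcript start) were at hand for 6 of the 10 members, 9 promoters in all. They were searched on both strands for AGGTCA, the core element that receptors such as Thrb and Rxrg bind, for TAATCC, the core bound by the photoreceptor factors Crx and Otx2, and for ACGTG, the core bound by hypoxia-inducible factors. AGGTCA was found in 4 of the 9 promoters, against 16.3% of all 32851 promoters of this length, TAATCC in 1 of 9 against 7.06%, and ACGTG in 1 of 9 against 19.6%. The 4 promoters with AGGTCA are printed because 2 of them belong to the receptors themselves and 2 to members that were higher in OIR cones. Capitals mark AGGTCA or its reverse complement TGACCT, and in Thrb also GGATTA, the reverse complement of TAATCC. A match of letters is a description and not a bound site.
Thrb, promoter of the upstream start, chr14:17660710-17661009, + strand: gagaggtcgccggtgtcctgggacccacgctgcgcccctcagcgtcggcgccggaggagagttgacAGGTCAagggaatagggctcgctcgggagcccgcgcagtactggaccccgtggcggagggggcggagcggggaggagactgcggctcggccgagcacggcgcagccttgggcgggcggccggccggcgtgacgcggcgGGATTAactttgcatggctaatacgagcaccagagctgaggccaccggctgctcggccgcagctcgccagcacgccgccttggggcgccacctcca
Rxrg, promoter of the downstream start, chr1:167618015-167618314, + strand: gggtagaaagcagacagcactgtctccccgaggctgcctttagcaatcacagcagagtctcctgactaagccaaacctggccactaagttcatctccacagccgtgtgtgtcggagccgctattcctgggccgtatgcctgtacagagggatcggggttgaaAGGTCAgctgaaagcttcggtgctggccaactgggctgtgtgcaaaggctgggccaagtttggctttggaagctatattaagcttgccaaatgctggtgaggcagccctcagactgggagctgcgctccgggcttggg
Sct, promoter, chr7:141279084-141279383, - strand: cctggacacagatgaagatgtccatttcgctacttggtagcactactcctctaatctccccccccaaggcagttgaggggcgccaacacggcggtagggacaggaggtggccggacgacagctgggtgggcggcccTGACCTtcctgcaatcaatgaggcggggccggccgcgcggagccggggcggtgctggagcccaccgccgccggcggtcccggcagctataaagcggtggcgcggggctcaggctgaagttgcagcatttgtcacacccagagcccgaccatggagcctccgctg
Meg3, promoter of the downstream start, chr12:109545148-109545447, + strand: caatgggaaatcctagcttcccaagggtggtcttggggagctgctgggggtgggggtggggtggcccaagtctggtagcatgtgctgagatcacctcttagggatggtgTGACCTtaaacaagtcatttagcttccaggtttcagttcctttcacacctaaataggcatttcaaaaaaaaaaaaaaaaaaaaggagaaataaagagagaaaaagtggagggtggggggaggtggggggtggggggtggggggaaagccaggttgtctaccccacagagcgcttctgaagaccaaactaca

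Expression was counted as unique molecular identifiers (UMIs), summed over the cone-like cells of a sample and given per 1000000 UMIs of that sum (CPM). The cone sums held between 608909 and 5532723 UMIs, with medians of 7175 to 9934 UMIs per cone. All 9 cone markers were detected in a larger share of cells in the cone cluster than in the mean over the clusters. Between samples 1 cone barcode was shared (161 over all cells). Both replicate 1 samples were deeper and held more cells other than rods than the rest. Xist was expressed in Ctrl replicates 2 and 3 and was at or near 0 in the other 4 libraries, so sex differed within Ctrl and between the groups. In a fit with a term for sex the OIR difference rests on Ctrl replicate 1, the only Ctrl sample with Xist at or near 0. None of the 8 members whose groups did not overlap changed direction there. That is no check on sex, since every OIR sample already lay above, or for Kcnj14 below, Ctrl replicate 1. OIR replicate 2 cones held 151 CPM of lens markers, at most 0.696 CPM in the others. Fewer cells of a kind and less RNA per cell cannot be told apart in sums, which the share of cones with a UMI addresses in part below.

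Cone sums fell apart by group for 8 of the 10 members. Vax2, Tubb2b, Meg3, Sct, Nbl1, Gm17315 and Gm27032 were higher in every OIR than in every Ctrl sample, and Kcnj14 was lower. Of the 9338 genes tested in cones, 11.0% were higher and 6.08% lower in OIR without overlap, but the members were chosen on this contrast and nothing is read from their count. The 2 nuclear receptors, Thrb and Rxrg, overlapped between the groups.

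**Figure D1:**
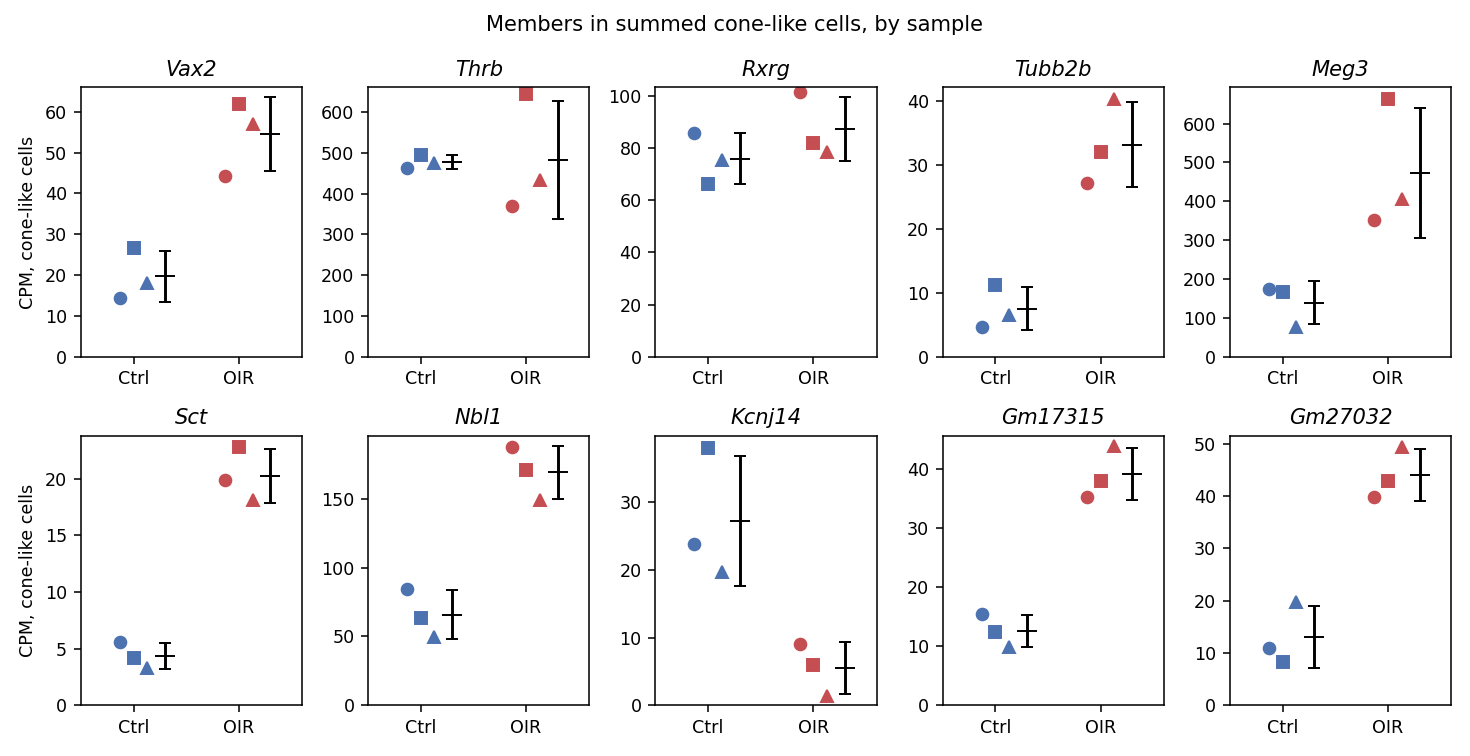
CPM of each member in summed cone-like cells (y axis, from 0) for the Ctrl (blue) and OIR (red) samples; circles, squares and triangles are replicates 1, 2 and 3, and black bars give the mean and SD over 3 samples. The groups are apart in 8 panels and overlap for Thrb and Rxrg.

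Thrb was at 371, 646 and 432 CPM in OIR replicates 1 to 3 and at 462, 495 and 475 CPM in Ctrl replicates 1 to 3. The OIR samples lay on both sides of the narrow Ctrl range, and the means were 483 ± 144 and 477 ± 16.996 CPM (SD, n = 3 each). Rxrg was at 102, 82.0 and 78.7 CPM in OIR and 86.0, 66.4 and 75.6 CPM in Ctrl. The fitted log2 differences (OIR minus Ctrl, edgeR, with standard error) were -0.05 ± 0.16 for Thrb and 0.14 for Rxrg, and their sign changed with the processing. Both receptors overlapped between the groups, whereas neither opsin did.

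Vax2 was at 44.4, 61.9 and 57.1 CPM in OIR cones and at 14.5, 26.7 and 18.1 CPM in Ctrl cones. Every OIR sample was above every Ctrl sample, and the means were 2.76-fold apart. A Vax2 UMI was found in 31.3% ± 4.57 of OIR cones and 11.1% ± 4.66 of Ctrl cones (SD, n = 3 each), and in 7.20% to 19.98% of rod-like cells, which were shallower. The antisense gene Vax2os overlapped between groups, at 67.7 ± 19.9 CPM in OIR and 40.0 ± 10.7 CPM in Ctrl.

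Tubb2b was at 27.2, 32.0 and 40.4 CPM in OIR and 4.70, 11.3 and 6.57 CPM in Ctrl. The lowest OIR sample was above the highest Ctrl sample, and the ratio of the means was 4.42. No cone held more than 4 Tubb2b UMIs, and 21.9% ± 3.85 of OIR cones against 5.79% ± 3.43 of Ctrl cones had any.

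Meg3 was at 351, 664 and 405 CPM in OIR and 176, 167 and 75.6 CPM in Ctrl, a ratio of means of 3.40. OIR replicate 2 was the highest and Ctrl replicate 3 the lowest. Meg3 was unevenly spread over cones: the tenth of cones with the most UMIs held 53.7% to 66.2% of the Meg3 UMIs in OIR and 67.4% to 72.1% in Ctrl, with up to 55 UMIs in 1 cone. Without those cones the level was still higher in each OIR sample (134, 347 and 158 CPM) than in each Ctrl sample (55.3, 53.9 and 27.6 CPM).

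Nbl1 was at 188, 171 and 149 CPM in OIR and 84.8, 63.4 and 49.3 CPM in Ctrl, and the ratio of means was 2.57. Its UMIs were spread more widely, with 56.2% ± 8.52 of OIR cones and 32.0% ± 3.14 of Ctrl cones holding any. Sct was at 19.9, 22.8 and 18.1 CPM in OIR and 5.60, 4.15 and 3.28 CPM in Ctrl. The SDs of Sct were 2.37 CPM in OIR and 1.17 CPM in Ctrl, and Ctrl replicates 2 and 3 rested on 7 and 2 UMIs.

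The non-coding Gm17315 was at 35.3, 38.0 and 43.9 CPM in OIR and 15.4, 12.4 and 9.85 CPM in Ctrl, and its opposite-strand neighbour Cdc42ep3 was also higher in each OIR sample, at 126 ± 9.64 against 95.4 ± 9.35 CPM (SD, n = 3). Gm27032, which adjoins Mir124a-3, was at 39.8, 42.9 and 49.4 CPM in OIR and 11.0, 8.30 and 19.7 CPM in Ctrl. Of the hosts of the other miR-124 copies, Mir124-2hg was higher in each OIR sample (942, 1397 and 1186 CPM against 642, 670 and 703 CPM), while Mir124a-1hg overlapped, at 809 ± 22.6 CPM in OIR and 898 ± 271 CPM in Ctrl.

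Kcnj14 was the member lower in OIR, at 9.08, 5.97 and 1.39 CPM against 23.9, 37.9 and 19.7 CPM in Ctrl, a ratio of means of 0.202. OIR replicate 3 held 2 Kcnj14 UMIs in its cones. Rods, not cones, were its main site, at 127, 29.9 and 27.4 CPM in OIR and 309, 235 and 267 CPM in Ctrl. Rod transcripts were present in the cone sums, where Gnat1, the rod transducin alpha subunit, reached 9.45% to 28.3% of its level in rods. The Kcnj14 level in cones was 5.08% to 19.995% of that in rods and below the Gnat1 percentage in 6 of 6 samples. Summed rod markers overlapped between the groups in cones. How much of the Kcnj14 in cone sums came from rods was not tested. For Vax2, Gm17315 and Gm27032 the percentage was above that of Gnat1 in 6 of 6 samples, with ranges of 28.3% to 77.4%, 101% to 352% and 68.0% to 205%.

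A similar measure was taken against other neighbours, with summed markers in place of Gnat1. Summed Müller glia markers reached 1.43% to 2.67% of their Müller level in the cone sums, at 574 to 758 CPM in OIR and 483 to 557 CPM in Ctrl without overlap (all 8 markers were detected and 1 of 7 tested, Vim, was called higher), while Tubb2b stood at 7.67% to 23.8% and Nbl1 at 23.8% to 107% of the Müller level. Of 2 tested cone bipolar markers 1 was called in the cone sums, Kcng4, lower in OIR (log2 difference -1.34, adjusted p = 0.0458, edgeR). Summed cone bipolar markers overlapped between the groups. They reached 1.24% to 2.01%, Meg3 3.85% to 27.2% and Gm27032 7.33% to 49.4% of the cone bipolar level. Each of these 4 values was above the marker percentage in 6 of 6 samples, and the part of other cells' RNA in them was not tested.

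The mix of opsin classes among cones differed too. Cones were called M-dominant with more Opn1mw than Opn1sw UMIs and S-dominant with the reverse, 880 and 901 cells in all. M-dominant cones made up 41.2%, 39.8% and 34.1% of classed cones in OIR replicates 1 to 3 (95% Wilson intervals 36.2% to 46.4%, 32.9% to 47.0% and 27.6% to 41.2%) and 57.8%, 51.7% and 52.9% in Ctrl (54.3% to 61.2%, 44.4% to 59.0% and 42.5% to 63.0%). The intervals cover counting error only. The classes rest on opsin UMIs, so a shift in opsin level and a shift in the kinds of cones cannot be told apart here. With the classes cut at a 4-fold ratio of the opsins the shares were 44.3%, 44.6% and 36.0% in OIR and 70.9%, 65.3% and 65.0% in Ctrl, and the difference of the means went from -15.8 to -25.4 percentage points. The groups did not overlap, and the two-sided exact permutation p of 0.1 is the smallest that 3 samples against 3 allow. Over all cones Opn1mw was at 5548, 5301 and 3493 CPM in OIR against 9914, 6887 and 7121 CPM in Ctrl, and Opn1sw at 13828, 11859 and 12862 CPM against 10487, 9482 and 8558 CPM.

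**Figure D2:**
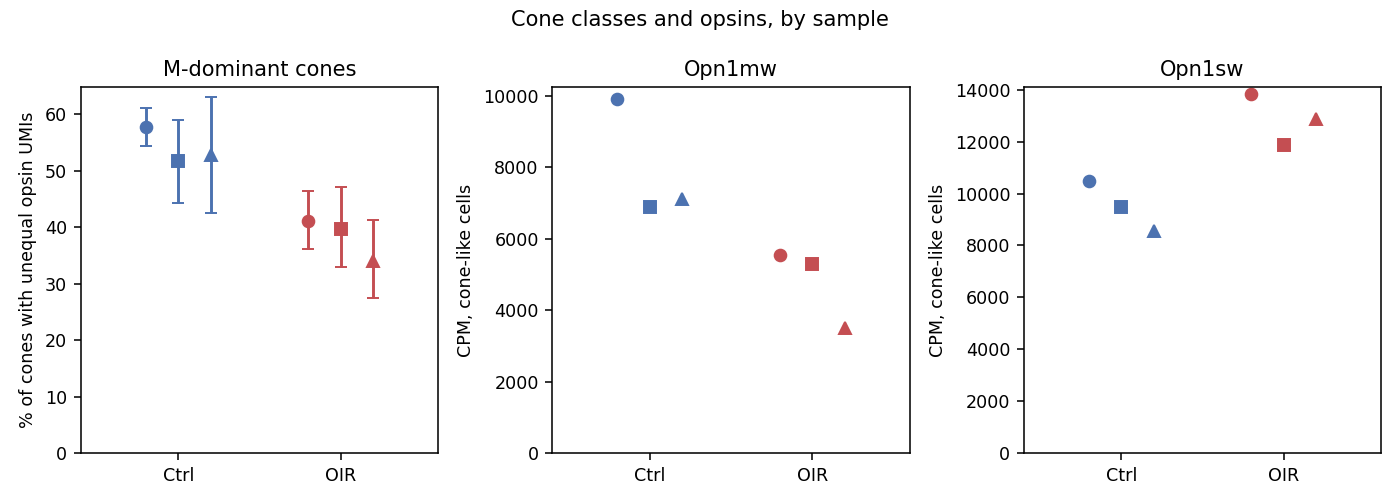
Share of M-dominant cones (left, percent, with 95% Wilson intervals of each sample) and CPM of Opn1mw and Opn1sw in summed cone-like cells (middle and right), for Ctrl (blue) and OIR (red) replicates 1 (circle), 2 (square) and 3 (triangle). The OIR samples are at 34.1% to 41.2% M-dominant cones and the Ctrl samples at 51.7% to 57.8%.

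A member that differs between M- and S-dominant cones can shift with this mix, if the mix reflects the kinds of cones. M- and S-dominant cones of the same sample were therefore compared over the 6 samples with edgeR's quasi-likelihood test and the sample as a block. OIR against Ctrl plays no part in this comparison, but the mix differs between the groups. A choice of members on OIR against Ctrl could therefore favour genes that differ between the classes. Sums by opsin class were also among the values known when the members were chosen. The adjusted p of the members are thus a description, and no count of members is read as support. Of 7885 genes tested, 4.96% were called, which needed an adjusted p below 0.05 with a log2 difference of 0.25 or more in size (2.41% higher in M-dominant and 2.55% higher in S-dominant cones), and of the 10 members 1 and 4.

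Vax2 was the member with the widest gap. It was at 8.28 ± 4.82 CPM in M-dominant and 56.9 ± 26.6 CPM in S-dominant cones (SD, n = 6), higher in the S-dominant cones of 6 of 6 samples, and the log2 difference (M minus S) was -2.84 with an adjusted p of 1.12e-17 (edgeR). Thrb went the other way, at 567 ± 140 CPM in M-dominant and 409 ± 77.1 CPM in S-dominant cones, higher in the M-dominant cones of 6 of 6 samples (log2 difference 0.36, adjusted p = 2.50e-06, edgeR). Its partner Rxrg was higher in S-dominant cones of 6 of 6 samples, at 92.0 ± 14.7 against 69.0 ± 12.6 CPM (log2 difference -0.38, adjusted p = 0.00434, edgeR), a call that was lost without OIR replicate 1 (adjusted p = 0.0765) and with DESeq2 (adjusted p = 0.178).

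Meg3 and Gm27032 were also higher in the S-dominant cones of 6 of 6 samples. Meg3 was at 359 ± 213 CPM against 227 ± 198 CPM in M-dominant cones, where the wide SDs hold the OIR and Ctrl samples together, and the log2 difference was -0.77 (adjusted p = 1.58e-11, edgeR). Gm27032 was at 35.7 ± 18.2 against 19.96 ± 15.2 CPM (log2 difference -0.89, adjusted p = 4.43e-04, edgeR). The other members were not called: Tubb2b had an adjusted p of 0.340, Sct of 0.189, Nbl1 of 0.107, Kcnj14 of 0.797 and Gm17315 of 0.101 (edgeR). Nbl1 was called without OIR replicate 2 (adjusted p = 0.00325). Among these, Tubb2b was higher in S-dominant cones of 6 of 6 samples and Gm17315 higher in M-dominant cones of 5 of 6.

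**Figure D3:**
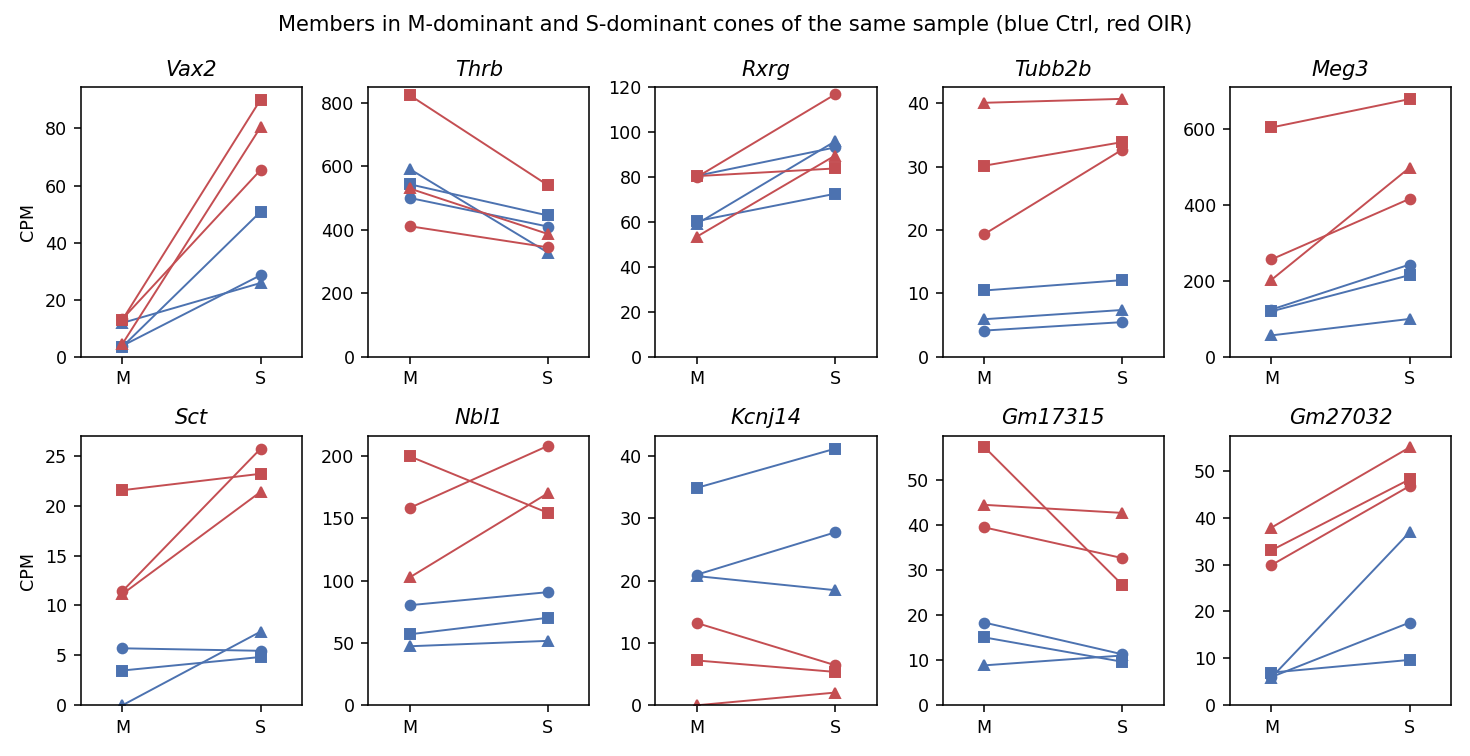
CPM of each member in M-dominant (M) and S-dominant (S) cones (y axis, from 0), with a line joining both classes of a sample; blue is Ctrl, red OIR, and circles, squares and triangles are replicates 1, 2 and 3. Lines rise from M to S in 6 of 6 samples for Vax2, Rxrg, Tubb2b, Meg3 and Gm27032 and fall in 6 of 6 for Thrb.

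Within the classes the OIR and Ctrl values of most members stayed apart. In S-dominant cones 7 of the 10 members were higher and 1 lower without overlap, where 9.48% and 5.33% of tested genes were. In M-dominant cones 6 were higher and 1 lower, with 10.1% and 4.82% of tested genes. Vax2 and Sct were too low there for the filter on counts, and of the 8 members that passed it 5 were higher and 1 lower. The members were chosen on this contrast with the sums by class known, so nothing is read from these counts. Vax2 was at 65.5, 90.1 and 80.5 CPM in OIR S-dominant cones and 28.6, 50.8 and 25.8 CPM in Ctrl, without overlap. In M-dominant cones it was at 13.2, 12.9 and 4.46 CPM against 3.81, 3.49 and 11.8 CPM, on 2 to 15 UMIs a sample, and the groups overlapped. Whether the Vax2 difference itself differs between the classes was not tested.

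Gm27032 was at 29.9, 33.0 and 37.9 CPM in OIR M-dominant cones and 6.03, 6.97 and 5.92 CPM in Ctrl, and at 46.8, 48.2 and 55.0 against 17.6, 9.68 and 36.9 CPM in S-dominant cones. Tubb2b, Nbl1 and Gm17315 had nearly the same ratio of means in both classes, 4.37 and 4.31, 2.50 and 2.50, and 3.34 and 3.19 in M- and S-dominant cones. Meg3 had ratios of 3.55 and 2.86, and Sct of 4.80 and 3.98. Thrb overlapped in both, with ratios of 1.08 and 1.07.

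With both classes given the same weight in each sample, the groups of the same 8 members did not overlap. For 7 of them this was fixed in advance, since their groups overlapped in neither class. Vax2, which overlapped in M-dominant cones, was the exception. The Vax2 ratio went from 2.76 to 2.14, that of Meg3 from 3.40 to 3.099 and that of Gm27032 from 3.39 to 3.02, while Gm17315 went from 3.11 to 3.27. Opn1sw, the opsin higher in OIR over all cones, then overlapped, with a ratio of 1.00, whereas Opn1mw remained lower in each OIR sample, with a ratio of 0.710. Within S-dominant cones Opn1mw was at 3034, 3568 and 2119 CPM in OIR and 5929, 4799 and 4045 CPM in Ctrl. The opsin values by class and with equal class weights are a description, since the opsins define the classes.

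Outside cones the members had different homes. Thrb and Rxrg were higher in cones than in any of the 7 other types compared, in all samples: cones held 371 to 646 CPM of Thrb, rods 85.4 to 116 CPM, and cones 66.4 to 102 CPM of Rxrg against at most 17.1 CPM in amacrine-like cells. Gm17315 and Sct also had their highest mean over all 6 samples in cones, but the range of Gm17315 overlapped that of rods. The range of Sct overlapped those of all the other types but rod bipolar-like cells. In Ctrl the mean of Sct was lower in cones (4.35 ± 1.17 CPM) than in rods (6.15 ± 1.18 CPM) and in amacrine-like cells (14.3 ± 13.5 CPM). Meg3 was highest in amacrine-like (2027 to 6497 CPM) and cone bipolar-like cells (1590 to 2930 CPM), whose ranges overlapped, and cones ranked 5 of 8. Among the 8 types, Nbl1 was highest in Müller-like cells (139 to 276 CPM), overlapping with cones. Gm27032 was highest in cone bipolar-like cells, Kcnj14 in rods and Tubb2b in amacrine-like and Müller-like cells. Endothelial-like and smooth muscle-like cells, with as few as 2 cells in a sample, were left out of this ranking. In the smooth muscle-like cells Nbl1 was at 213 to 617 CPM, on 426 UMIs in all. Vax2 had its highest mean over all 6 samples in rods, with a range that overlapped that of rod bipolar-like cells. In Ctrl its mean was higher in rod bipolar-like cells (64.6 ± 17.8 CPM) than in rods (51.2 ± 0.158 CPM), and in OIR it was higher in rods (78.6 ± 2.50 CPM) than in rod bipolar-like cells (56.7 ± 5.88 CPM). By level, then, Thrb and Rxrg were the members whose range in cones lay above that of every other ranked type. Within each sample Gm17315 was also highest in cones among the ranked types, by little in Ctrl replicate 3 (9.85 CPM against 9.73 CPM in rods).

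**Figure D4:**
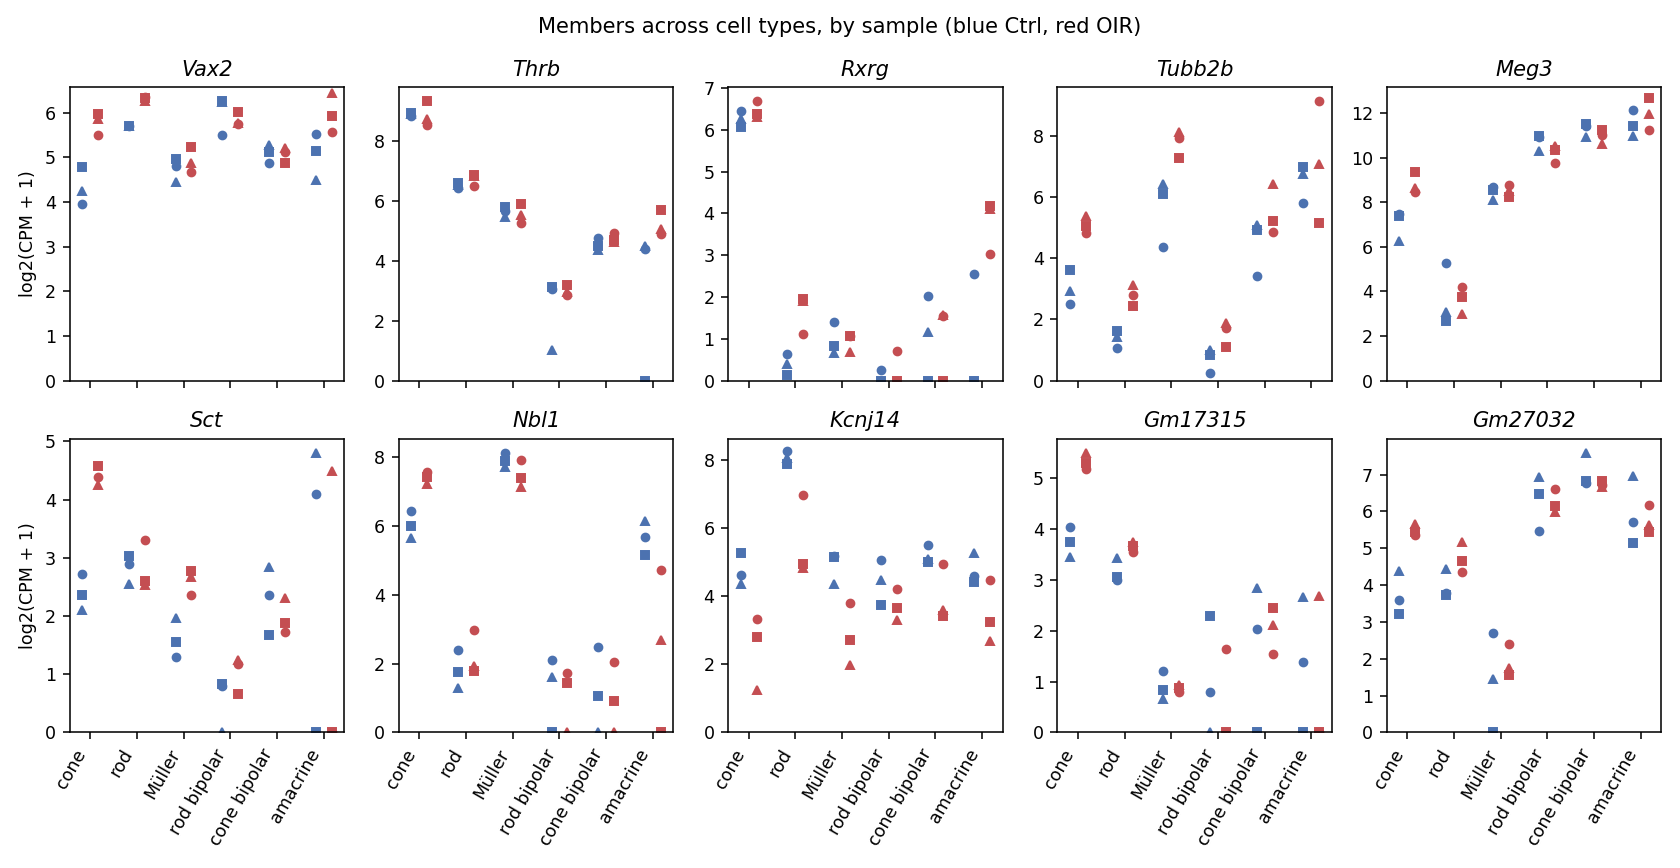
Members in 6 cell types, as log2(CPM + 1) of each sample (y axis, from 0); blue is Ctrl, red OIR, and circles, squares and triangles are replicates 1, 2 and 3. Thrb and Rxrg are highest in cones in every sample, Kcnj14 in rods is lower in each OIR sample, and Tubb2b in cones, rods and Müller-like cells is higher in each OIR sample.

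In rods 4 members were higher in OIR without overlap (Vax2, Rxrg, Tubb2b and Gm17315) and 1 was lower (Kcnj14), where 23.8% of tested genes were higher and 4.70% lower without overlap. Vax2 was at 80.2, 79.995 and 75.8 CPM in OIR rods and 51.1, 51.4 and 51.1 CPM in Ctrl rods. Rxrg rested on 84 UMIs in rods, at 1.15, 2.89 and 2.77 CPM against 0.550, 0.103 and 0.311 CPM, while the cone opsins in rods overlapped between groups. Tubb2b was at 6.01, 4.39 and 7.68 CPM against 1.10, 2.05 and 1.66 CPM, and Gm17315 at 10.6, 11.6 and 12.4 CPM against 6.96, 7.28 and 9.73 CPM. Meg3, Sct, Nbl1, Thrb and Gm27032 overlapped in rods.

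In Müller-like cells Tubb2b and Sct were higher and Kcnj14 lower without overlap, where 14.2% and 6.64% of tested genes were. Tubb2b was at 241, 155 and 280 CPM in OIR and 19.7, 66.9 and 85.7 CPM in Ctrl, and Sct at 4.15, 5.83 and 5.37 CPM against 1.47, 1.94 and 2.89 CPM. Nbl1, whose highest mean level among the ranked types was in Müller-like cells, overlapped there, at 182 ± 52.6 CPM in OIR and 239 ± 34.5 CPM in Ctrl. In cone bipolar-like cells Kcnj14 alone did not overlap, at 29.7, 9.74 and 11.2 CPM against 44.6, 31.6 and 33.1 CPM, where 10.4% of tested genes were higher and 6.12% lower. Meg3 was at 2031 ± 425 CPM in OIR and 2560 ± 523 CPM in Ctrl there, and Gm27032 at 106 ± 6.27 and 138 ± 46.5 CPM, both overlapping. In rod bipolar-like cells Tubb2b was higher on 20 UMIs in all, too low for the filter on counts. Of the genes tested there, 11.6% were higher and 7.64% lower. In amacrine-like cells, the least sampled of these types, Vax2, Thrb and Rxrg were higher and Nbl1 lower without overlap on 13 to 101 UMIs. All of these were too low for the filter on counts there. Of the genes tested in amacrine-like cells, 4.92% were higher and 7.88% lower.

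Other genes of these pathways were tested in cones with edgeR. OIR against Ctrl, 78 of 9338 genes were called higher (0.835%) and 40 lower (0.428%). Of 23 tested genes of cone phototransduction 1 was called, the cone arrestin Arr3, which ends opsin signalling: it was at 1310, 1165 and 1187 CPM in OIR and 1670, 2575 and 2743 CPM in Ctrl (log2 difference -0.98, adjusted p = 0.00702, edgeR). Neither opsin was called by edgeR, and DESeq2 called 2 of the 23. With a term for sex Arr3 was no longer called (adjusted p = 0.256), nor without OIR replicate 3 (0.051) or Ctrl replicate 3 (0.052). No photoreceptor transcription factor was called by edgeR (21 tested) or DESeq2 (24 tested), where 8 and 3 had an unadjusted p under 0.05. Over all genes 1043 of 9338 had one with edgeR and 703 of 16957 with DESeq2. The median log2 difference of the transcription factors was 0.14, against 0.00 over all genes.

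Of 14 tested genes of thyroid hormone and retinoid handling 1 was called. Crym, which binds thyroid hormone in the cytosol, was at 20.3, 42.4 and 31.3 CPM in OIR and 7.59, 11.9 and 6.57 CPM in Ctrl (log2 difference 1.75, adjusted p = 0.00464, edgeR), a call lost with cones taken by marker UMIs alone (adjusted p = 0.153). Crym was also among the leading genes of a Müller-like cluster, and summed Müller markers in the cone sums were higher in OIR too. The part of Müller RNA in the Crym values of cones was not tested. Of 19 genes of immature neurons Tubb2a, another beta-tubulin, was called, at 25.5, 19.0 and 48.0 CPM against 12.1, 9.48 and 9.85 CPM (log2 difference 1.38, adjusted p = 0.0307, edgeR), and was not called with cones taken by marker UMIs alone (adjusted p = 0.354) or without OIR replicate 3, Ctrl replicate 2 or Ctrl replicate 3 (0.158, 0.102 and 0.098). Begain, the 1 tested gene near Meg3 in the Dlk1-Dio3 region, was at 20.6, 64.6 and 13.9 CPM in OIR and 8.49, 2.37 and 0 CPM in Ctrl (log2 difference 2.40, adjusted p = 0.0210, edgeR), a call that rested on OIR replicate 2 (adjusted p = 0.147 without it) and was also lost without Ctrl replicate 2 or 3 (0.065 and 0.084) and with DESeq2 (0.429). No gene was called by edgeR among 10 of the bone morphogenetic protein pathway, 3 potassium channels, 18 outer segment genes or 15 stress and dissociation genes, where 0, 2, 5 and 4 had an unadjusted p under 0.05. Over all genes 1043 of 9338 had one in that fit. DESeq2 called 1 gene of these lists, the outer segment gene Pde6d, lower in OIR. No gene of the secretin family passed the filter. The lists' median log2 differences were 0.23 for thyroid and retinoid genes, 0.20 for immature neurons, 0.06 for the bone morphogenetic protein pathway, -0.07 for outer segment and -0.04 for stress genes.

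The same lists were tested between M- and S-dominant cones, in a fit over 6 samples with the sample as a block that called 4.96% of all genes, so counts are not compared with those of OIR against Ctrl. Besides the opsins, 1 of 21 cone phototransduction genes was higher in M-dominant cones (Arr3, log2 difference 0.39, adjusted p = 9.19e-10) and 5 were higher in S-dominant cones (Guca1a, an activator of guanylate cyclase, -0.62, adjusted p = 3.10e-18, and Gnb3, the cone transducin beta subunit, -0.53, adjusted p = 9.68e-16, among them; edgeR). Of 20 transcription factors 3 were higher in M-dominant cones, with Nr2f2, a dorsally expressed nuclear receptor, at 43.2 against 3.77 CPM (3.43, adjusted p = 3.15e-18) and Samd7 at 183 against 84.1 CPM (1.12, adjusted p = 1.82e-16), both in 6 of 6 samples. Otx2 and Samd11 were higher in S-dominant cones (adjusted p = 0.0157 and 0.0344, edgeR), and both calls were lost with DESeq2 (adjusted p = 0.199 and 0.616) and without OIR replicate 1 (0.149 and 0.169). The Otx2 call was also lost without Ctrl replicate 3, and that of Samd11 without OIR replicate 2 or Ctrl replicate 2.

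Of 12 thyroid and retinoid genes Klf9, a thyroid hormone response gene, was higher in the M-dominant cones, where Thrb was higher too (log2 difference 0.36, adjusted p = 2.97e-05, edgeR). Tubb3 and Marcks of the immature neuron genes (0.58 and 0.46), Bambi of the bone morphogenetic protein pathway (0.79), Begain (0.82) and the outer segment genes Cdhr1 and Rp1l1 (0.32 each) were higher in M-dominant cones, with adjusted p of 1.23e-07, 0.00463, 1.47e-05, 0.00682, 4.27e-05 and 0.00128 in that order (edgeR). Kcne2, a potassium channel subunit, was higher in S-dominant cones (-0.61, adjusted p = 2.52e-14). Begain and Meg3, both of the Dlk1-Dio3 region, were higher in OIR cones but stood higher in opposite classes, though DESeq2 did not call Begain between the classes (adjusted p = 0.218). Stress genes were called in both directions, with Egr1 (0.28) and Junb (0.30) higher in M-dominant and Hspa1a (-0.41) higher in S-dominant cones, at adjusted p of 0.00146, 0.00817 and 0.0204 (edgeR). Of the rod markers Sag, which cones also express, was higher in S-dominant cones (-0.61, adjusted p = 1.59e-16), and of the Müller markers Apoe was (-0.78, adjusted p = 9.93e-06, in 4 of 6 samples). The cone bipolar marker Zfhx4 was higher in M-dominant cones (1.45, adjusted p = 2.82e-09, edgeR, in 6 of 6 samples).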

How the data were processed

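The authors deposited counts of UMIs per gene and barcode for each of the 6 samples, as whole numbers without normalization. The study's methods name Cell Ranger with default parameters, the matrix headers give software version 3.1.0 and the submitters' processing notes build mm10; the methods name a human build, which the mouse gene identifiers contradict. The strand setting of the counting is not given in the sources used here. The 6 samples held 165647166 UMIs in 47631 barcodes, between 15788524 and 42606878 UMIs each, and cells with 500 to 5000 genes and at most 20% mitochondrial UMIs were kept, as in the study.

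Cells were integrated and clustered with Seurat 5.3.0 (canonical correlation, 2000 genes, 15 dimensions, 20 neighbours, Louvain resolution 0.5), and clusters named from marker lists. A cluster of 16 cells with cone and rod bipolar markers stayed unnamed. Raw counts were summed per sample and type and fitted by the quasi-likelihood test of edgeR 4.0.16 after filterByExpr and TMM scaling, and genes were called with a Benjamini-Hochberg adjusted p below 0.05 and a log2 difference of 0.25 or more in size. All 10 members passed the filter in cones. The fits were tested on simulated data. Ties in opsin UMIs were left out of the classes, and doublets were kept in the main sums. The methods call the samples biological replicates and mention enrichment of cells, whose method is not given; whether they share litters is not stated.

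The members and gene lists were chosen with earlier results of these data known. The text names all 10 members, from each list the called genes in cones whose groups do not overlap (at most 4 in each direction by lowest p), and in M- against S-dominant cones at most 2 in each direction. Equal class weights, and the OIR or Ctrl samples alone, were alternatives chosen after seeing the data. Other work used Python 3.11.15, pandas 2.3.3, SciPy 1.17.1, R 4.3.3 and DESeq2 1.42.0.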

Additional observations from a re-analysis of the deposited data

How the results depend on the processing

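Across 18 alternatives for the cone sums, the log2 differences (fitted, or with equal class weights the log2 ratio of means) of Vax2 (1.10 to 1.82), Tubb2b (1.67 to 2.71), Meg3 (1.34 to 1.96), Sct (1.79 to 2.32), Nbl1 (0.94 to 1.499), Kcnj14 (-3.07 to -1.74), Gm17315 (1.26 to 1.71) and Gm27032 (1.59 to 2.04) kept their sign, while Thrb (-0.28 to 0.11) and Rxrg (-0.03 to 0.30) did not. The members that kept their sign were chosen on this contrast, so this is a description and no support. The low Vax2 value came from equal class weights, the low Tubb2b value from leaving out Ctrl replicate 1. Sums by opsin class were known when the members were chosen, so their calls in M- against S-dominant cones are a description. Vax2 was called under the 11 alternatives that tested it (with the classes cut at a 4-fold ratio Vax2 failed the filter on counts). Without the sample as a block (no replicate block) the calls of Thrb, Rxrg, Meg3 and Gm27032 were lost (adjusted p = 0.272, 0.351, 0.851 and 0.547, edgeR).

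Counts of called genes moved more. In cones, 78 genes higher and 40 lower became 50 higher with DESeq2, 193 and 115 without a filter on low counts, 195 and 149 in replicates 2 and 3 alone, 45 and 20 with cones by marker UMIs alone, and 17 and 10 without an upper limit on genes. Leaving out 1 sample gave 37 to 123 higher and 18 to 83 lower. With the replicate block 198 were higher and 126 lower; equal numbers correlated at 0.164, 0.0584 and 0.0678 in cones, where 1 of 3 was over 0.1, and at 0.670, 0.298 and 0.506 over all cells, whose mix of types enters there. The cone sums were the values tested, so the numbers were not taken as pairs, and the labels tie no number to a litter or day. The genes of the other lists called, 3 higher and 1 lower, became 7 and 3 without a filter, 9 and 4 with the replicate block, 7 and 6 in replicates 2 and 3 alone, 0 higher with cones by marker UMIs alone, and 0 and 0 without an upper limit; 3 were lower with DESeq2 and 2 with the sex term, a 10% mitochondrial limit or doublets removed, and leaving out 1 sample gave 1 to 6 higher and 0 to 2 lower. Between M- and S-dominant cones, 190 and 201 called genes became 69 and 116 with DESeq2, 30 and 58 with no replicate block, and 77 and 111 in the Ctrl samples alone. The cause was not tested.

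The share of M-dominant cones, 15.8 percentage points lower in OIR (a difference of -15.8), was -25.4 points with classes cut at a 4-fold ratio of the opsins. Depth limits the shares of cones with a UMI. With each cell thinned to 1000 UMIs, the OIR minus Ctrl share was 1.73 percentage points for Vax2, -0.13 for Rxrg, 1.92 for Tubb2b, 1.13 for Sct, 10.2 for Nbl1, -2.60 for Kcnj14, 1.44 for Gm17315 and 3.44 for Gm27032, against 20.2, 8.59, 16.1, 9.79, 24.1, -9.44, 15.1 and 19.6 points unthinned. For Meg3 it was 12.8 thinned and 12.4 unthinned, and for Thrb -2.21 and -3.07. After thinning, the groups overlapped for Vax2 (3.30% to 4.40% in OIR, 1.38% to 3.45% in Ctrl), Tubb2b, Sct, Rxrg and Thrb. They stayed apart for Meg3, Nbl1, Kcnj14, Gm17315 and Gm27032.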
